A study of Mus musculus with 12 samples.

Results

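The long non-coding RNAs Kcnq1ot1, Malat1, Neat1 and 6330407A03Rik were followed in cells sorted as monocytic myeloid-derived suppressor cells (M-MDSCs) from the bone marrow of aged and young mice. They are 4 of the 23420 genes in the deposited count table, found by their names, and all 4 were among the 9742 genes with enough counts to be tested. Kcnq1ot1 and 6330407A03Rik were chosen by their lower counts in aged mice in these same libraries, so their difference between the ages is a description and carries no test. Malat1 and Neat1 were added as RNAs of the same class, with the results for all genes known.

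The cells came from male C57BL/6JNIA mice of 24 months (aged, n = 6) or 6 months (young, n = 6), with no treatment named in the labels, and 1 library was made from each mouse. The labels name the tibia as the tissue, and sorting took CD11b+Ly6G-Ly6Chi cells, a gate shared by M-MDSCs and inflammatory monocytes. The aged mice carry the numbers 1, 2, 4, 5, 6 and 7 and the young mice 1, 2, 5, 6, 9 and 10. The labels do not say whether equal numbers link mice. In the names of the alignment files every young library has a smaller number after the letter S than any aged one, and what this number stands for is not stated.

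Between 8737941 and 16300374 fragments were counted per aged mouse, and between 4613239 and 9079237 per young mouse. The markers did not bear out a purely monocytic population, so the cells are called here by their label. Of 10 classical monocyte markers written, 9 were in the table, and their summed level was 4336 to 5386 CPM (counts per 1e6 counts of the scaled library) for aged and 4884 to 5214 CPM for young mice. Most of this was Itgam (CD11b), which neutrophils share, at 2895 ± 297 CPM in aged and 3376 ± 118 CPM in young mice (SD, n = 6 each). Itgam was called lower and Ly6c2 and Cd14 higher. For scale, 22.4% of the 9742 genes tested were called higher in aged mice and 23.0% lower. The monocyte genes Ccr2 and F13a1 were at 31.2 ± 22.2 and 21.04 ± 17.98 CPM in aged and 37.1 ± 14.3 and 26.9 ± 9.94 CPM in young mice. The 11 neutrophil markers summed to far more, 110589 to 129005 CPM in aged and 74199 to 110416 CPM in young mice, led by the granule gene Ngp (39630 and 30944 CPM on average), S100a8 (35816 and 21062 CPM) and the granule gene Ltf (20903 and 21723 CPM). Of these 11, 7 were called higher in aged mice and none lower. Each sum given here is over all genes of its list in the count table, whether tested or not. Resident macrophage markers were called higher in 8 of 8 tested, with sums of 57.0 to 1033 CPM against 47.5 to 64.6 CPM. Of 3 stromal and endothelial markers tested, Pecam1 and Cxcl12 were called higher, with sums of 19.2 to 106 CPM against 10.5 to 21.0 CPM. Erythroid markers, none tested, summed to 1.29 to 10.6 CPM against 0.391 to 1.29 CPM. Of 4 dendritic cell markers tested, H2-Ab1 was called higher and Clec9a lower (13.4 to 183 CPM against 16.6 to 28.1 CPM). Of 2 B and plasma cell markers, Xbp1 was called higher (120 to 183 CPM against 101 to 129 CPM). Neither of 2 T and NK cell markers was called (7.71 to 13.04 CPM against 6.21 to 11.5 CPM). The part of these differences in the levels of the 4 RNAs was not tested. Young mice 5 and 6 stood apart, with 14.3% and 14.5% of their counts in the 10 most abundant genes against 17.2% to 18.5% in the other young mice.

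Long non-coding RNAs are transcripts without a long reading frame, and several act in the nucleus, where they stay after transcription. Malat1 is an abundant RNA of nuclear speckles, the bodies that hold splicing factors. Neat1 is the scaffold of paraspeckles, bodies that form where its long isoform is made. Kcnq1ot1 is the antisense RNA of the imprinted Kcnq1 domain, made from the paternal chromosome, where it silences neighbouring genes in cis. For 6330407A03Rik no function is described here, and no source used here places it in the nucleus. RNA was taken from whole cells, so the counts do not show in which compartment any of the 4 lay, and fewer molecules per cell cannot be told apart from fewer cells that contain them.

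Malat1 and the long isoform of Neat1 share an unusual end. They are cut by RNase P before a tRNA-like structure and end in a triple helix of U-rich and A-rich stretches in place of a poly(A) tail. These stretches are printed here because the table counted over one of them and not over the other. The sequences are from GENCODE M21 transcripts on GRCm38 (mm10), minus strand, with the stretches TTTCTTTT, TTTTGCTTTT and AAAAAGCAAAA in capitals. Among 141767 GENCODE transcripts, 2 held the 3 stretches in this order, with at most 60 bases between the first and the second and the third within 120 bases of the start of the second, and they were Malat1-201 and Neat1-201.
Malat1-201, chr19:5795979-5796070: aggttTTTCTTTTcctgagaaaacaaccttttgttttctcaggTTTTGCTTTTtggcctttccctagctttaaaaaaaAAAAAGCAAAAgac
Neat1-201, chr19:5824708-5824802: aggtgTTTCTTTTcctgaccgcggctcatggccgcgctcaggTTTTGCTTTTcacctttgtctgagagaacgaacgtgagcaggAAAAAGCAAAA

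The table counted Malat1 over this element, since its single exon spans chr19 from 5795690 to 5802671, a length of 6982 bases. For Neat1 it did not. The counted interval runs from 5842302 to 5845478 on chr19, 3177 bases, whereas Neat1-201 has 20771 bases, so that 15.3% of the long isoform was counted. That interval is shared by the short and the long isoform, and the 2 cannot be separated by these counts. Near its end stands AATAAA, the letters of a poly(A) signal, shown in capitals.
Neat1, last 60 bases counted, chr19:5842302-5842361: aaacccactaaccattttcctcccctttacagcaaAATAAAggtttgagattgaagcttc

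Kcnq1ot1 was counted over a single interval of 83437 bases on chr7 from 143213111 to 143296547, minus strand, inside Kcnq1, which is read from the other strand. The GENCODE transcript Kcnq1ot1-201 goes on for a further 9653 bases at its 3′ end that were not counted. Its promoter is shown since it lies in the imprinting control region of the domain and the CCAAT box, which NF-Y binds, recurs in it. It is taken from RefSeq (GRCm38.p6), which held promoters of 250 bases before and 50 after the start for 2 of the 4 RNAs, Kcnq1ot1 and Malat1. CCAAT, searched on either strand, is in capitals. Kcnq1ot1 had 3 matches and Malat1 had 0, and 3 or more were found in 3.37% of the 32851 promoters in the table.
Kcnq1ot1 promoter, chr7:143296498-143296797, minus strand: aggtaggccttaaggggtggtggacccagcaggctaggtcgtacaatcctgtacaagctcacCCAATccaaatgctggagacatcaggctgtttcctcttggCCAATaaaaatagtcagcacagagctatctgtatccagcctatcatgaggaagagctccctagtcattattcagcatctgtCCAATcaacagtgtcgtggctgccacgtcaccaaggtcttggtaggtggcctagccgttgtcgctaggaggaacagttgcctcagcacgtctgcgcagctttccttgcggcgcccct

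Between the ages, 4425 of the 9742 genes tested (45.4%) were called at an adjusted p under 0.05 in edgeR's quasi-likelihood test with Benjamini-Hochberg adjustment, 2185 (22.4%) higher and 2240 (23.0%) lower in aged mice. With library totals in place of the trimmed mean of M-values (TMM) scaling, 37.8% of the called genes were higher, against 49.4% with it. Without young mice 5 and 6, 3157 genes were called, 1392 of them higher. Every aged value was below every young value in 1179 genes (12.1%). The 4 RNAs were among these 1179 genes, and for Kcnq1ot1 and 6330407A03Rik this follows from how they were chosen.

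**Figure D1:**
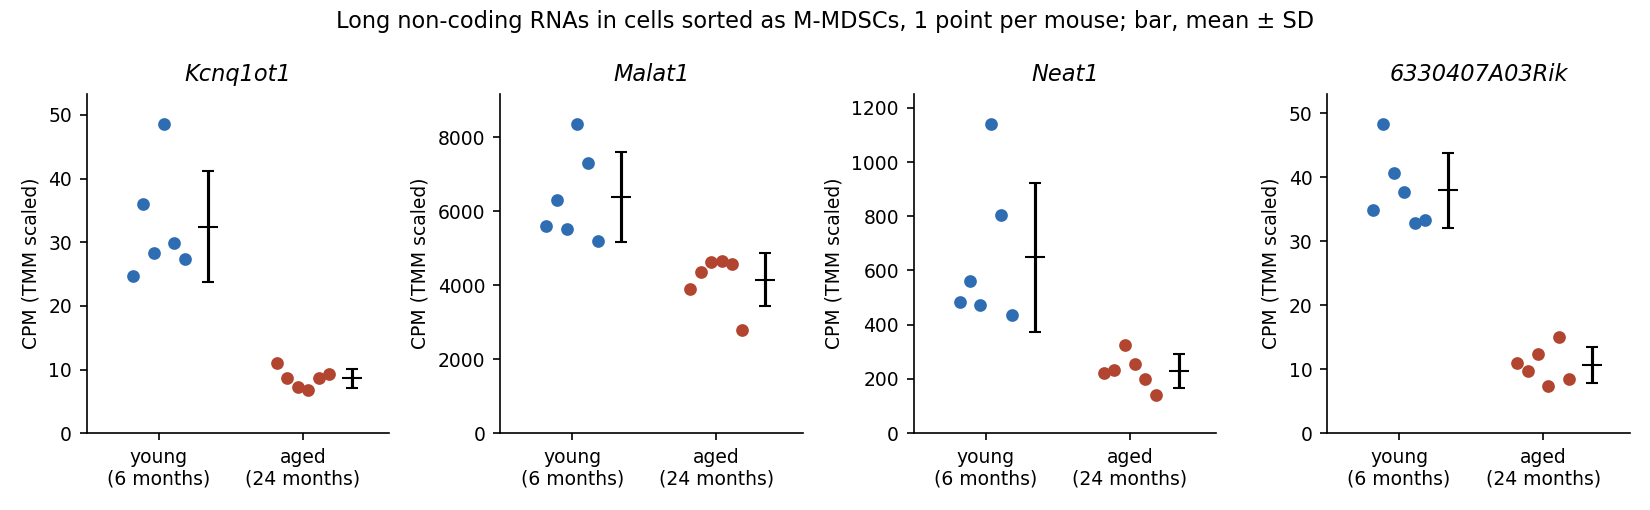
CPM of the 4 RNAs in the cells sorted as M-MDSCs, 1 point per mouse, with young mice (6 months) in blue and aged mice (24 months) in red and the mean ± SD as a black bar. In every panel all 6 aged mice lie below all 6 young mice, and the young mice spread most, relative to their mean, for Neat1 (coefficient of variation 42.3%).

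Malat1 was one of the most abundant RNAs in every library. Its rank among all genes was 17 to 24 at 24 months and 8 to 12 at 6 months, with 0.274% to 0.446% and 0.518% to 0.917% of all counts. In aged mice the lowest, median and highest values were 2796, 4463 and 4647 CPM, and in young mice they were 5199, 5949 and 8346 CPM. The groups did not overlap, with aged mouse 7 the lowest and young mice 5 and 6 the highest. The mean was 4148 ± 721 CPM (SD, n = 6) in aged mice and 6378 ± 1222 CPM (SD, n = 6) in young mice. The log2 fold change, aged over young, was −0.62 ± 0.14 (SE), a level 1.54 times as high in young mice, and Malat1 was called lower (edgeR adjusted p = 0.00279). Among the 9742 genes, 8.92% fell further than Malat1.

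Neat1 differed more. Its lowest, median and highest values were 142, 228 and 325 CPM in aged mice and 435, 522 and 1139 CPM in young mice. No aged value reached the lowest young value, and young mice 5 and 6, at 1139 and 806 CPM, were well above the next young mouse at 561 CPM. The mean was 230 ± 61.2 CPM (SD, n = 6) in aged mice and 649 ± 275 CPM (SD, n = 6) in young mice. Neat1 was called lower with a log2 fold change of −1.50 ± 0.24 (SE; edgeR adjusted p = 2.52e-04), a level 2.83 times as high in young mice, and 0.585% of the genes tested fell further.

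Both calls held without young mice 5 and 6. Malat1 then had a log2 fold change of −0.47 ± 0.12 (SE; edgeR adjusted p = 0.00949) and Neat1 of −1.11 ± 0.16 (SE; edgeR adjusted p = 2.72e-04). The same pair of libraries had the lowest summed neutrophil markers, 74199 and 75904 CPM, while the other young mice had 96942 to 110416 CPM, and the part of this in the RNAs' levels was not tested. Without aged mouse 1, which had the highest sum of resident macrophage markers at 1033 CPM, the log2 fold changes were −0.60 for Malat1 and −1.49 for Neat1.

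Neat1 fell relative to Malat1. Its counts were 5.50 ± 0.888% (SD, n = 6) of those of Malat1 in aged mice, from 4.34% to 7.03%, and 9.85 ± 2.10% (SD, n = 6) in young mice, from 8.38% to 13.6%. The ratio needs no scaling between libraries, and the groups did not overlap. The log2 ratio differed by −0.83 ± 0.15 (SE) between the ages (exact two-sided permutation test over 924 splits of the mice, p = 0.00216, the smallest this design allows). Groups that do not overlap always give this p, so it adds nothing to the lack of overlap. Both RNAs were also added with the results known.

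**Figure D2:**
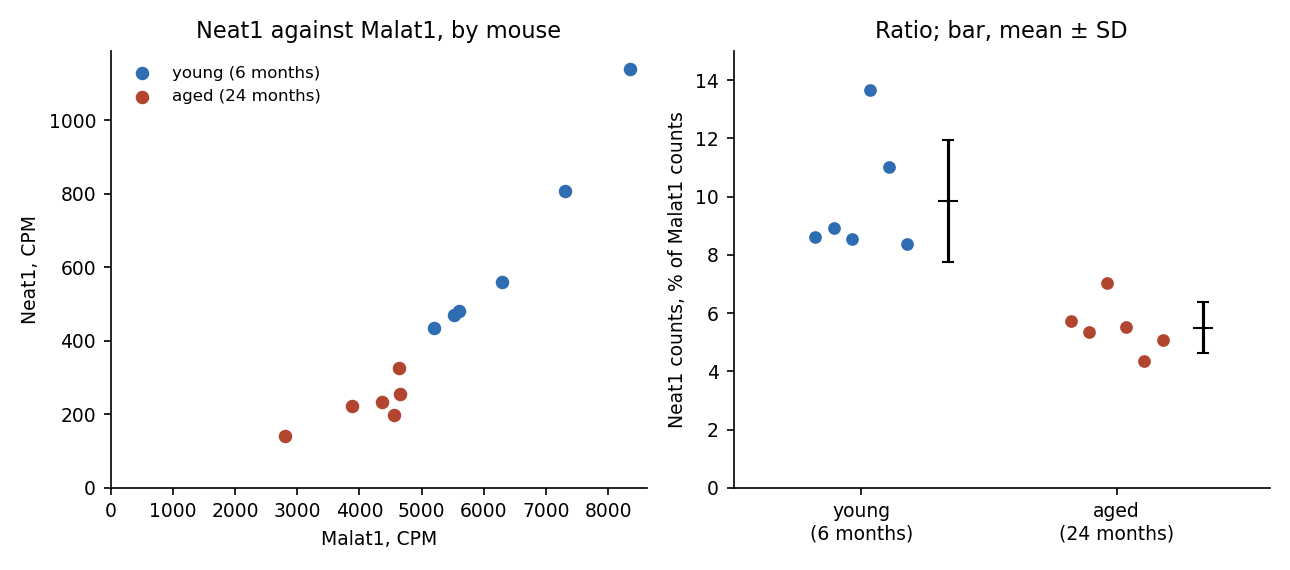
Left, Neat1 against Malat1 in CPM, 1 point per mouse; right, Neat1 counts as a percentage of Malat1 counts, with the mean ± SD as a black bar. The aged mice lie at the lower left, and their ratios, at most 7.03%, are all below the lowest young ratio of 8.38%.

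Within an age, mice with more Malat1 also had more Neat1. Pearson's correlation of their log2 CPM, taken as deviations from the age means over the 12 mice, was 0.90, with 0.83 among aged and 0.99 among young mice. The 6 young mice include mice 5 and 6 at the top of both scales, and the values share library depth and scaling. The other pairs among the 4 RNAs had correlations of 0.06 to 0.35. Kcnq1ot1 and Malat1 went together in young mice (0.82) and in opposite directions in aged mice (−0.54).

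Kcnq1ot1 had few counts for its length. Aged mice had 68 to 148 fragments and young mice 132 to 447, or 0.815 to 1.77 and 1.58 to 5.36 fragments per kb. The lowest, median and highest levels were 6.75, 8.62 and 11.04 CPM in aged mice and 24.6, 29.1 and 48.5 CPM in young mice. All young mice were above all aged mice, and young mouse 5 was the highest. The mean was 8.59 ± 1.52 CPM (SD, n = 6) in aged mice and 32.5 ± 8.72 CPM (SD, n = 6) in young mice, 3.78 times as high on the fitted scale. The log2 fold change was −1.92 ± 0.17 (SE), the 9th largest fall of the 9742 genes, which is how the gene was chosen. Counting error alone gives a coefficient of variation of 11.01% for the median aged library, against 17.7% observed among aged mice.

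6330407A03Rik lies on chr4 from 3714964 to 3716806, plus strand, as a single interval of 1843 bases. Aged mice had 79 to 158 counts of it and young mice 190 to 347. In aged mice the lowest, median and highest levels were 7.30, 10.4 and 14.96 CPM, and in young mice they were 32.9, 36.3 and 48.3 CPM. No library came between 14.96 and 32.9 CPM. The mean was 10.6 ± 2.77 CPM (SD, n = 6) in aged mice and 38.0 ± 5.84 CPM (SD, n = 6) in young mice, with a log2 fold change of −1.83 ± 0.16 (SE), a level 3.57 times as high in young mice. This was the 14th largest fall. Unlike Neat1, the RNA was not highest in young mice 5 and 6, at 37.7 and 32.9 CPM, and without them its log2 fold change was −1.90 ± 0.17 (SE).

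The interval of 6330407A03Rik is inside Lyn, which encodes a Src-family kinase of myeloid and B cells, and on the same strand. It sits between the exon of Lyn that ends at 3678364 and the one that starts at 3738725, the first intron in the table. Fragments of unspliced Lyn RNA from this stretch would therefore be counted as 6330407A03Rik. Lyn itself was at 581 ± 58.7 CPM (SD, n = 6) in aged mice and 562 ± 47.9 CPM (SD, n = 6) in young mice, with a log2 fold change of 0.05 ± 0.08 (SE; edgeR adjusted p = 0.652). The counts of 6330407A03Rik were 1.14% to 2.45% of those of Lyn at 24 months and 5.75% to 7.81% at 6 months. Within an age, its correlation with Lyn over the 12 mice was 0.15, with −0.03 among aged and 0.53 among young mice. The part of unspliced Lyn RNA in its counts was not tested.

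**Figure D3:**
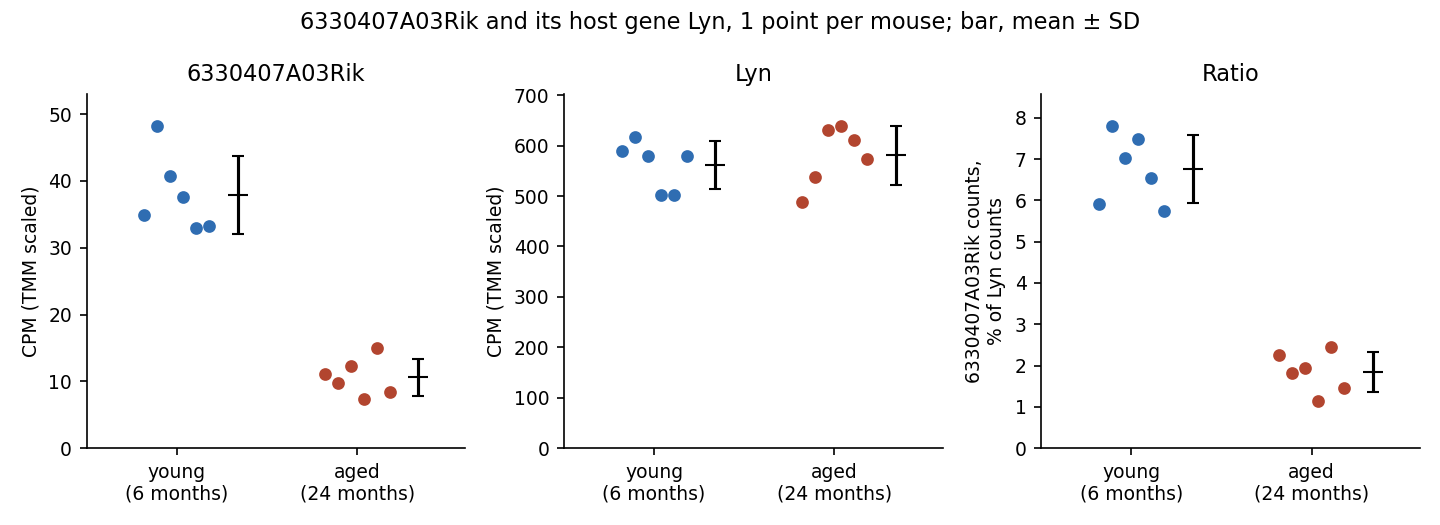
CPM of 6330407A03Rik, CPM of Lyn and the counts of 6330407A03Rik as a percentage of Lyn counts, 1 point per mouse, with the mean ± SD as a black bar. Lyn overlaps between the ages around means of 581 and 562 CPM, whereas 6330407A03Rik and the ratio do not overlap. For 6330407A03Rik this follows from how it was chosen, and the ratio carries it over.

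Per kb of exon, Malat1 was the highest of the 4 at 594 ± 103 CPM per kb in aged mice and 913 ± 175 CPM per kb in young mice (SD, n = 6 each). Neat1 followed at 72.3 ± 19.3 and 204 ± 86.5 CPM per kb. 6330407A03Rik had 5.77 ± 1.505 and 20.6 ± 3.17 CPM per kb. Kcnq1ot1 was last at 0.103 ± 0.0183 and 0.389 ± 0.105 CPM per kb. The order was the same at both ages, and neighbouring RNAs in it differed by more than their spread over mice. The Neat1 value is over its counted interval only, and that of Kcnq1ot1 is an average over a very long interval.

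In these libraries the fold change depended on exon length. Genes of up to 1000 bases had a median log2 fold change of 0.50 and those over 12000 bases one of −0.76, with 67 of these 76 called lower. Kcnq1ot1, the longest of all genes tested, fell furthest of the 76. The next longest, Macf1 with 23495 bases, had a log2 fold change of −1.64. Malat1 was in the range of 6000 to 8000 bases, where the median was −0.30, 55.3% of genes were called lower and 20.7% fell further than Malat1. By contrast, Neat1 in the range of 3000 to 4000 bases (median −0.05) and 6330407A03Rik in that of 1000 to 2000 bases (median 0.23) were far below the genes of like counted length, of which 0.595% and 0.190% fell further. The low places of Kcnq1ot1 and 6330407A03Rik follow from their choice by their falls, and Neat1 was added with the results known. Neat1 is placed here by its 3177 counted bases. Its long isoform of 20771 bases would stand in the range over 12000 bases, and the isoforms could not be separated. Single-exon genes did not fall as a group, with 111 of 310 called higher, 61 lower and a median of 0.17. They were shorter, with a median length of 1932 bases against 2925 for the other genes. The part of length in this was not tested.

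When the trend with length was removed within each library, Malat1 was no longer called. Its log2 fold change became −0.25 ± 0.14 (SE; edgeR adjusted p = 0.167), and 0.173 was the adjusted p with lengths capped at the 99th percentile. With the counted length, Neat1 remained called lower at −1.46 ± 0.23 (SE; edgeR adjusted p = 4.70e-04), and 6330407A03Rik had −1.97 ± 0.16 (SE). A correction at the length of the long isoform of Neat1 was not tested. For Kcnq1ot1 the value depended on the form of the correction. It was −0.0051 when the curve was drawn out to its own length, where no other gene lies, and −1.25 ± 0.14 (SE) when lengths were capped.

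**Figure D4:**
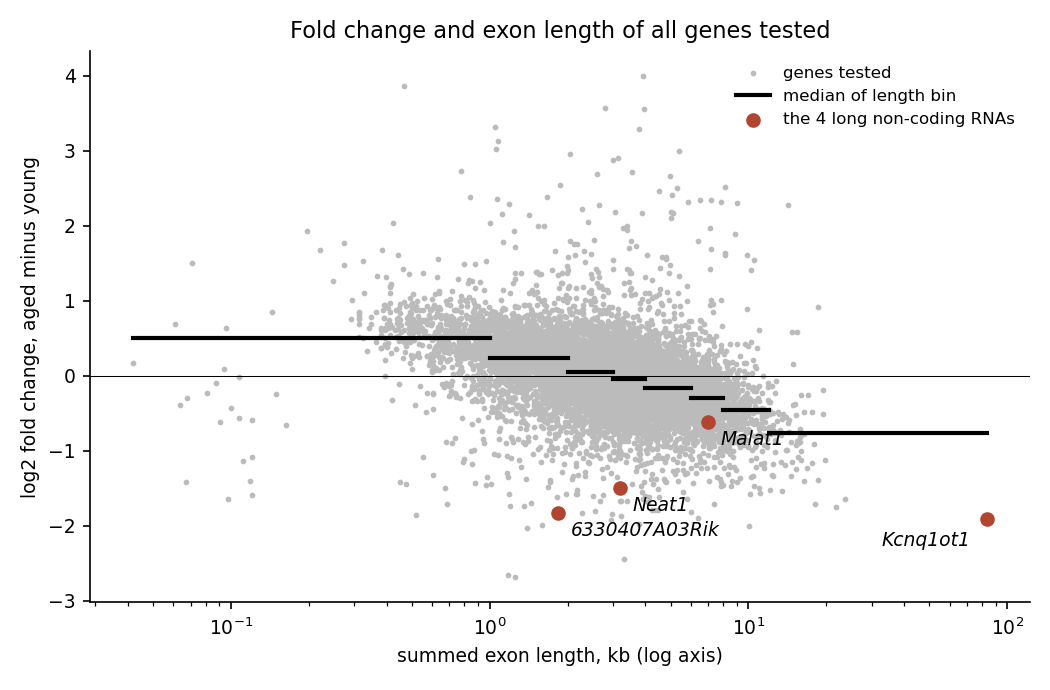
Log2 fold change, aged over young, against summed exon length on a log axis for the 9742 genes tested (grey), with the median of each length range as a black line and the 4 RNAs in red. The medians run from 0.50 to −0.76, with Malat1 near the bulk of genes of its length, Neat1 and 6330407A03Rik far below that of their counted lengths and Kcnq1ot1 alone at the right. Neat1 stands at its 3177 counted bases, not at the length of its long isoform. Kcnq1ot1 and 6330407A03Rik were chosen by their falls.

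Kcnq1ot1 can silence genes of the Kcnq1 domain. Of 21 genes written for the domain and its surroundings, 10 were tested. Not all of the 21 are its targets, and which of them it silences in these cells was not tested. Cd81, a tetraspanin, was called higher (log2 fold change 0.52 ± 0.10, SE), with 131 ± 21.5 CPM in aged and 91.1 ± 7.77 CPM in young mice. Cars, the cysteinyl-tRNA synthetase, and Tspan32, another tetraspanin, were called lower at −0.48 ± 0.12 and −0.24 ± 0.08 (SE). The log2 fold changes of the genes that were not called were −0.32 for Ascl2, −0.31 for Nadsyn1, −0.13 for Tssc4, −0.04 for Tnfrsf23, 0.11 for Nap1l4, 0.27 for Tnfrsf26 and 0.33 for Dhcr7. The median of the 10 was −0.08, against 0.01 for all genes tested, of which 22.4% were higher and 23.0% lower. Without young mice 5 and 6, 1 of the 10 was called lower, with the trend in length removed 4 were, and without aged mouse 4, 2 were called higher.

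Several imprinted genes closest to Kcnq1ot1 had too few counts to pass the filter. Cdkn1c, a cell cycle inhibitor, had 3 to 12 counts per library in aged and 0 to 5 in young mice. Slc22a18 had 1 to 13 and 0 to 3, and Phlda2 had 0 in all 12 libraries. Kcnq1, the potassium channel gene on the other strand, had 0 to 4 counts in aged mice and 0 in young mice. When genes of low counts were kept, 19 of the 21 had a p-value, and both edgeR and DESeq2 then called 1 higher and 2 lower. At an unadjusted p under 0.05, 4 were then higher and 3 lower in edgeR, and 2 higher and 3 lower in DESeq2. With the filter, 1 was higher and 3 were lower at this threshold in edgeR. At such low counts the lack of a call says little.

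Proteins that take part in silencing by such RNAs gave calls in both directions. Of 16 tested, 6 were lower and 2 higher, against 23.0% and 22.4% of all genes, and the median log2 fold change was −0.07. The 6 became 3 without young mice 5 and 6, and 3 with the trend in length removed. The largest fall was that of Dnmt1, the maintenance DNA methyltransferase, at −0.49 ± 0.15 (SE), and the smallest p that of Hnrnpu, which binds nuclear RNA to chromatin, at −0.39 ± 0.07 (SE; edgeR adjusted p = 8.27e-04). Pcgf1, a Polycomb subunit, had the highest value at 0.41 ± 0.23 (SE) and was not called. The methyltransferase Ehmt1 was at −0.31 ± 0.07 and its partner Ehmt2 at 0.06 ± 0.17 (SE), of which only the first was called.

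**Figure D5:**
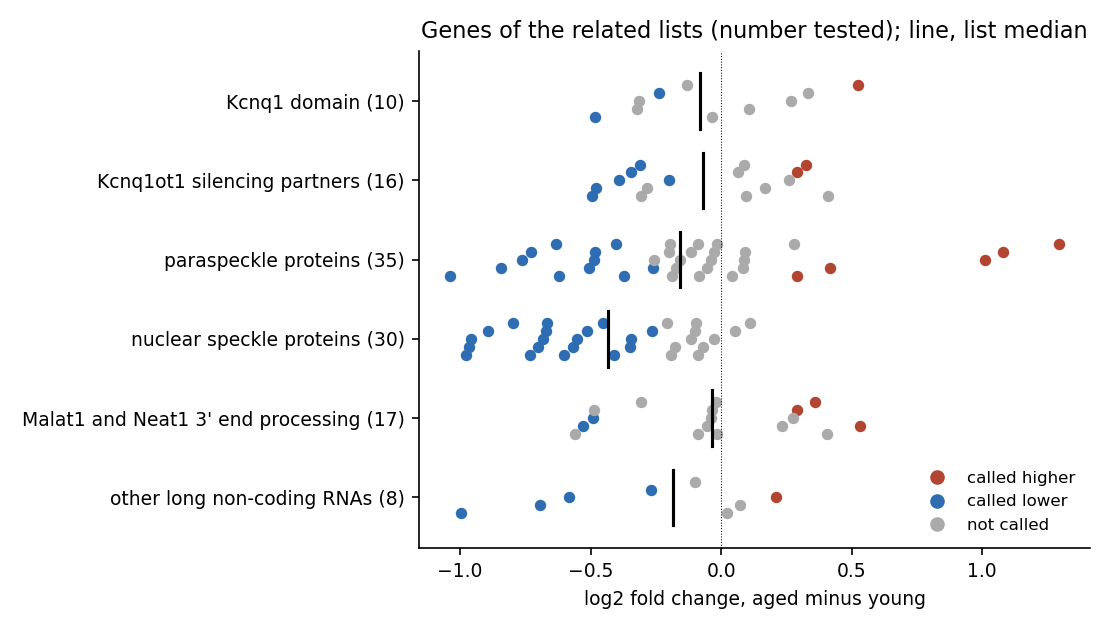
Log2 fold changes, aged over young, of the tested genes in 6 lists related to the RNAs, each point 1 gene, red if called higher, blue if called lower and grey if not called, with a black line at the list median. Nuclear speckle proteins have a median of −0.43 and no red point, whereas paraspeckle proteins have calls on both sides.

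Among proteins of nuclear speckles, the bodies in which Malat1 gathers, 19 of 30 tested were called lower (63.3%, against 23.0% of all genes) and none higher, also at an unadjusted p under 0.05 in edgeR, DESeq2 or limma-voom, with a median log2 fold change of −0.43. The lowest were Rbm25 at −0.98 ± 0.15 and Tra2a at −0.96 ± 0.16 (SE), both splicing regulators. Srrm2, a scaffold of the speckle, had the smallest p (−0.89 ± 0.11, SE; edgeR adjusted p = 5.22e-05), with 260 ± 35.9 CPM in aged and 482 ± 77.7 CPM in young mice (SD, n = 6 each). Son, the other scaffold, was called lower at −0.55 ± 0.09 (SE). The splicing factors Srsf4, Srsf5, Srsf7 and Srsf11 were called lower, at −0.45, −0.35, −0.51 and −0.41. Srsf1, Srsf2, Srsf3 and Srsf6 were not called, at −0.10, −0.07, −0.03 and −0.09. The highest value was 0.11 for Rnps1, also not called. The list had a median length of 3192 bases, and with the trend in length removed 20 were called lower and none higher. Without young mice 5 and 6, 17 were lower.

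Paraspeckle proteins, which bind Neat1, gave 12 lower and 5 higher of 35 tested, against 23.0% and 22.4% of all genes, with a median of −0.16. Taf15 was at −1.04 ± 0.18 and Hnrnph1 at −0.84 ± 0.16 (SE). Of the core paraspeckle proteins of the DBHS family, Sfpq was called lower at −0.50 ± 0.10 (SE), while Nono at −0.09 and Pspc1 at −0.19 were not called. The calls in the other direction were the cold-inducible RNA-binding proteins Cirbp (1.30 ± 0.22, SE) and Rbm3 (1.08 ± 0.10, SE; edgeR adjusted p = 6.64e-06, the smallest of the list), Zc3h6 (1.01), Rbm7 (0.42) and Hnrnpk (0.29).

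Of 17 tested factors that process or read the ends of Malat1 and Neat1, 2 were lower and 3 higher, against 23.0% and 22.4% of all genes. These few calls were not stable. Those higher were 1 without any one of aged mice 1 and 2 and young mice 5 and 6, and those lower were 1 without any one of aged mice 4, 5, 6 and 7 and young mice 5, 6 and 10. Without both young mice 5 and 6, edgeR called 0 lower (1 at an unadjusted p under 0.05) and 1 higher, and with the replicate block 0 lower (2 unadjusted) and 2 higher. The largest fall was that of Pop5, an RNase P subunit, at −0.56 ± 0.29 (SE; not called). Rpp25l was the highest at 0.53 ± 0.19 and was called, as were Pop7 (0.36) and Hnrnpk (0.29; edgeR adjusted p = 0.00281, the smallest of the list). Dgcr8 (−0.53), a microRNA-processing factor, and Mettl3 (−0.49), the adenosine methyltransferase, were called lower. Mettl16, which binds the triple helix of Malat1, was at −0.31 ± 0.22 (SE), and Elac2, which trims the tRNA-like product, at −0.01 ± 0.17 (SE), both not called. Hnrnpk stands in 3 of the lists and Matr3 in 2.

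Of 8 other long non-coding RNAs tested, 4 were called lower, against 23.0% of all genes. A330023F24Rik, the host transcript of a miR-29 pair, had −0.997 ± 0.20 (SE), with 15.8 ± 5.08 CPM in aged and 31.6 ± 8.12 CPM in young mice. Dleu2, the host of miR-15a and miR-16, had the smallest p (−0.69 ± 0.09, SE; edgeR adjusted p = 8.30e-05). Gm14005 was at −0.58 and the imprinted Peg13 at −0.27. Tug1 (−0.10), 1700020I14Rik (0.02) and Mir22hg (0.07) were not called. The cytoplasmic RNA 2900097C17Rik, known as Norad, was called higher at 0.21 ± 0.07 (SE). That call was lost without young mice 5 and 6, with library totals in place of TMM and with the replicate block.

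Calls among the nearest genes went in both directions, where 22.4% of all genes tested were called higher and 23.0% lower. Of the 9 tested near Malat1, 1 was higher and 2 were lower, and of the 9 near Neat1, 1 was higher and 1 lower. Malat1 and Neat1 are counted here as neighbours of each other. Malat1 and Neat1 are 39631 bases apart on chr19. Frmd8, which begins 5496 bases from Neat1, was at 118 ± 4.66 CPM in aged and 113 ± 4.74 CPM in young mice, with a log2 fold change of 0.05 ± 0.05 (SE) and no call. Among the 5 nearest genes on each side and within 100000 bases of either RNA, Slc25a45 (−0.22), Tigd3 (−0.57), Sssca1 (0.39), Dpf2 (0.10) and Cdc42ep2 (0.24) were not called, Ehbp1l1 was called lower (−0.46 ± 0.12, SE) and Fam89b higher (0.41 ± 0.12, SE). Near 6330407A03Rik the tested genes were Lyn and Tgs1 (−0.17), neither called, and of the 6 tested among its 10 nearest genes, Rps20, a ribosomal protein gene, was called higher (0.94 ± 0.16, SE; edgeR adjusted p = 4.10e-04) and none lower. None of the 10 nearest genes that was tested lay within 100000 bases of Kcnq1ot1. Of the 4 tested further away, Cd81 was called higher and Tspan32 lower.

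For each RNA the 3 genes with the most similar pattern within the ages were sought among 7805 genes of at least 5 CPM on average, by the correlation of deviations from the age means over the 12 mice. For Malat1 they were 3110002H16Rik (0.93), Col20a1 (0.93) and the splicing kinase Clk1 (0.92), and for Neat1 they were Safb2 (0.95), which encodes a scaffold attachment factor, 5830416P10Rik (0.95) and again Col20a1 (0.94). Clk1, Safb2, 5830416P10Rik and Col20a1 were also called lower in aged mice, with log2 fold changes of −0.68, −0.79, −1.15 and −1.16. The log2 fold change of 3110002H16Rik was −0.25, and it was not called. For scale, 23.0% of all genes tested were called lower. Kcnq1ot1 was most like D14Abb1e (0.89), Wdr11 (0.88) and Shprh (0.85). D14Abb1e and Shprh were called lower, at log2 fold changes of −0.50 and −0.47, and Wdr11 was not called, at 0.04. 6330407A03Rik was most like Mrps35 (0.88), Tbrg3 (0.83) and Sntb1 (0.81), and the last of these went with it in aged mice (0.97) but hardly in young mice (0.03). Tbrg3 and Sntb1 were called lower, at log2 fold changes of −1.46 and −1.20, and Mrps35 was not called, at 0.05. The correlations named are the highest of 7805 over 12 mice, so their height is in part set by the choice.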

How the data were processed

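RNA from cells sorted as M-MDSCs of 6 aged and 6 young mice was sequenced in pairs from a strand-specific TruSeq library. The deposited values are whole-number counts of fragments per gene, which the authors obtained with featureCounts 2.0.0 over the exons of a UCSC mm10 annotation, reverse-stranded, with both ends aligned, no chimeric pairs and a mapping quality of at least 60. Fragments that fit several places were thereby lost. The aligner, and whether RNA was selected by poly(A), are not given in the sources used here, and the latter bears on RNAs that lack a poly(A) tail. Libraries held 4613239 to 16300374 fragments.

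Counts were fitted with edgeR 4.0.16 (filterByExpr, TMM factors, quasi-likelihood test, R 4.3.3) on all genes, with Benjamini-Hochberg adjustment and a threshold of 0.05. SE came from the fold change and the F statistic. CPM are counts per 1e6 of the TMM-scaled total. A call of higher or lower is an adjusted p under 0.05. Exon length was taken from the table. Correlations are descriptions, on log2 CPM (prior count 2). The RNAs and the gene lists were chosen with earlier results of these data known. The genes named are the 4 RNAs, their 3 most similar genes each, the largest rise, largest fall and smallest p of each related list, every tested gene of the Kcnq1 domain and, of the 5 nearest genes on each side, those tested within 100000 bases; other list members named were chosen after their values were seen, as examples of known role. Some genes that this rule names are not reported here. The fits were tested on simulated counts. Libraries of one age differed by at least 1.68 in chi-square per gene over 30 pairs, so none was a copy. Sequences are from GENCODE M21 and RefSeq, both GRCm38. Alternatives were DESeq2 1.42.0, limma-voom (limma 3.58.1), other scalings and filters, thinning, correction for length, leaving out mice, and a block for mouse number.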

Additional observations from a re-analysis of the deposited data

How the results depend on the processing

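Each of the 4 fold changes was recomputed under 26 alternatives, 2 of them chosen after seeing the data (without young mice 5 and 6, and the 8 mice of shared number alone). None changed direction. The call of Malat1 was lost only with a correction for exon length, at a log2 fold change of −0.25 with either form of it (adjusted p of 0.167, and 0.173 with lengths capped), and its adjusted p was otherwise below 0.05. Kcnq1ot1 moved to −0.0051 and −1.25 under those corrections and by less than its spread over mice in the other 24. Neat1 stayed called lower in all 26, with adjusted p from 5.48e-06 to 0.00178, and 6330407A03Rik stayed between −1.97 and −1.74. Leaving out 1 mouse at a time gave −1.76 to −1.996 for Kcnq1ot1, −0.53 to −0.67 for Malat1, −1.27 to −1.62 for Neat1, −1.74 to −1.96 for 6330407A03Rik and 3804 to 4717 genes called. Mouse numbers 1, 2, 5 and 6 occur at both ages. The deviations of same-numbered mice correlated at −0.25 to −0.07, and 0 of 4 aged mice correlated best with their own number. No pairing showed, but so few pairs cannot exclude that equal numbers link mice. With the replicate block over these 8 mice, Malat1 was at −0.65 (adjusted p = 0.0110 in edgeR), Neat1 at −1.65, Kcnq1ot1 at −2.03 and 6330407A03Rik at −1.92, with 3490 genes called against 4394 in the same mice without the block. Counts of 68 to 158 limit Kcnq1ot1 and 6330407A03Rik in aged mice.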
